A study of Mus musculus with 25 samples.

Results

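The SLC30 family of zinc exporters was examined in αTC1 (alpha TC1 clone 6) and βTC6 (beta-TC-6) cells, mouse lines derived from pancreatic alpha and beta cell tumours. Its members were the 10 genes Slc30a1 to Slc30a10 among the 24439 genes of the RNA-seq table, and the 44 ATAC-seq peaks, of 65053 consensus peaks, whose nearest annotated gene was a member. ATAC-seq measures open chromatin by the insertion of a transposase. Pure αTC1 and βTC6 cells were profiled in 5 ATAC-seq and 3 RNA-seq libraries each, and 9 further ATAC-seq libraries held mixtures from 10% to 90% βTC6 cells. Both lines are untreated, immortal tumour lines that arose in mice carrying the SV40 large T antigen, under a glucagon promoter for αTC1 and an insulin promoter for βTC6, and αTC1 is a single clone. They were grown in Dulbecco's Modified Eagle's Medium of different formulations, with different serum shares and supplements, so that line and medium cannot be told apart.

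Most SLC30 proteins, also called ZnT, move zinc out of the cytosol, either across the plasma membrane or into organelles, whereas SLC39 proteins, also called ZIP, move it into the cytosol. In beta cells zinc is stored with insulin in secretory granules, where insulin crystallizes as zinc-bound hexamers, and ZnT8, encoded by Slc30a8, is the granule transporter. Slc30a8 is also transcribed in alpha cells, and coding variants of its human counterpart are known for their association with type 2 diabetes.

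Markers separated the lines. Of the 5 alpha cell markers matched, 4 were higher in αTC1, among them Gcg at 12929 ± 1281 FPKM (fragments per kilobase, scaled to library size; SD, n = 3) against 229 ± 50.4 in βTC6, and Ttr did not pass. All 6 beta cell markers were higher in βTC6, where Sst was also at 256 ± 61.9 FPKM and Ppy at 50.8, 3.70 and 23.4 FPKM. Of 7 markers of other pancreatic cell types, 6 stayed below 1 FPKM on average in both lines, and Col1a2 was at 1.58 FPKM in αTC1 and 0.133 in βTC6. Replicates were not equally alike. By the chi-square of the counts per degree of freedom, αTC1 RNA-seq replicate 3 differed from the other libraries of its line by 27.8 and 29.3, against 2.06 between replicates 1 and 2, and the βTC6 RNA-seq pairs differed by 17.3 to 38.4, most with replicate 3. In ATAC-seq, αTC1 replicates 4 and 5 differed from replicates 1 to 3 by 10.1 to 11.4, against 2.05 to 2.16 among the latter. The βTC6 replicates 4 and 5 differed from replicates 1 to 3 by 4.47 to 8.28 and from each other by 8.525, against 2.255 to 2.551 among replicates 1 to 3. The numbers of members called below, 3 and 2, were the same without replicate 3 of either line.

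Among the 10 members, 7 passed the expression filter (FPKM of at least 1 in all 3 libraries of either line). Slc30a8, Slc30a5 and Slc30a1 were higher in βTC6, Slc30a4 and Slc30a9 were higher in αTC1, and Slc30a6 and Slc30a7 did not pass. These 5 calls rest on edgeR's quasi-likelihood test at an adjusted p under 0.05, which 74.6% of all tested genes passed (38.7% higher in βTC6 and 36% higher in αTC1), so a passing member was the usual outcome in this comparison. None of the 7 met the study rule in edgeR or DESeq2, although 5 passed at an unadjusted p under 0.05; the rule also asks for an absolute log2 fold change over 2, which was met by 14.3% of tested genes (10.2% higher in βTC6 and 4.08% higher in αTC1). With libraries scaled by the summed ERCC spike-ins, which are RNAs of known amount added to each sample, none of the 5 passed in edgeR (adjusted p 0.15 to 0.59, and 0 at an unadjusted p under 0.05), where 29.2% of all tested genes still passed, 17.5% higher in βTC6 and 11.8% in αTC1, although the log2 fold changes moved little, to 0.71 for Slc30a8, 0.46 for Slc30a5, 0.38 for Slc30a1, -0.78 for Slc30a4 and -0.35 for Slc30a9. The labels do not say that replicates came from separate cultures, so p-values measure the spread between these libraries, and in bulk libraries fewer cells of a type and less RNA per cell cannot be told apart.

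**Figure D1:**
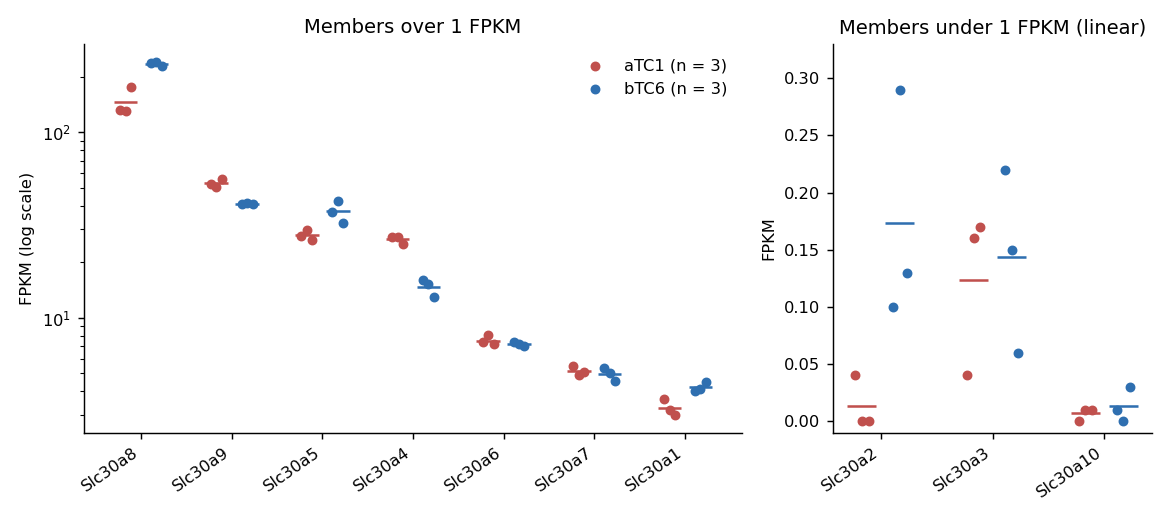
FPKM of the 10 SLC30 genes in each RNA-seq library, with αTC1 in red, βTC6 in blue and horizontal lines at the means of 3 libraries; the left axis is logarithmic and the right axis linear. Slc30a8 lies above every other member in both lines, and Slc30a2, Slc30a3 and Slc30a10 stay below 0.3 FPKM in every library.

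Slc30a8 (ENSMUSG00000022315, mm9 chr15:52127108-52167353, plus strand) was the most abundant member in both lines. Its level was 131.9, 130.5 and 176.5 FPKM in the αTC1 libraries and 235.4, 240.8 and 229.5 FPKM in the βTC6 libraries. Every βTC6 library was above every αTC1 library, and αTC1 replicate 3 was the nearest to them. The fitted difference was 1.67-fold higher in βTC6 (fitted log2 fold change 0.74, SE 0.12, edgeR adjusted p = 4.98e-04), and the log2 fold change was 0.90 without αTC1 replicate 3. Slc30a8 made up 53.9% ± 4.36 of the summed FPKM of the 10 members in αTC1 and 68.1% ± 0.809 in βTC6 (SD, n = 3).

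Among the members of the early secretory pathway, Slc30a5 and Slc30a6 encode partners of a heterodimer and Slc30a7 a homodimer, all of which load zinc into the Golgi. Slc30a5 (chr13:101572604-101603382, minus strand) was at 27.6, 29.6 and 26.3 FPKM in αTC1 and at 37.2, 42.8 and 32.5 FPKM in βTC6. Its lines did not overlap (1.38-fold higher in βTC6, log2 fold change 0.47, SE 0.11, edgeR adjusted p = 0.00419). Slc30a6 (chr17:74794972-74823569, plus strand) was at 7.35, 8.04 and 7.20 FPKM in αTC1 and at 7.42, 7.18 and 7.02 in βTC6. Slc30a7 (chr3:115641891-115710324, minus strand) was at 5.46, 4.91 and 5.12 FPKM in αTC1 and at 5.36, 5.01 and 4.57 in βTC6. Both overlapped between the lines, with log2 fold changes of -0.01 (SE 0.11, edgeR adjusted p = 0.958) and 0.01 (SE 0.09, adjusted p = 0.956). The partner subunits Slc30a5 and Slc30a6 thus had different outcomes in the test, but the difference between them was not tested.

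Slc30a1, the main zinc exporter of the plasma membrane (chr1:193730646-193737126, plus strand), was low. Its libraries held 3.63, 3.16 and 2.99 FPKM in αTC1 and 4.02, 4.11 and 4.50 FPKM in βTC6. The lines did not overlap, and the gene was 1.33-fold higher in βTC6 (fitted log2 fold change 0.41, SE 0.11, edgeR adjusted p = 0.00781). Slc30a10, a plasma membrane transporter known for exporting manganese (chr1:187278727-187292641, plus strand), was close to the detection limit, with expected counts of 0, 1 and 1 in αTC1 and 1, 0 and 4 in βTC6.

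Both members that were higher in αTC1 act inside the cell, as do Slc30a8, Slc30a5, Slc30a6 and Slc30a7. Slc30a4, an endosomal and vesicular transporter whose mutation causes the lethal milk phenotype in mice (chr2:122506969-122528399, minus strand), was at 27.2, 27.4 and 25.0 FPKM in αTC1 and at 16.0, 15.2 and 12.9 FPKM in βTC6. It was 1.73-fold higher in αTC1 without overlap (log2 fold change -0.79, SE 0.09, edgeR adjusted p = 5.49e-05), a size close to that of Slc30a8 in the other direction. Slc30a9, a mitochondrial zinc exporter also described as a nuclear receptor coactivator (chr5:67698194-67749804, plus strand), was at 52.9, 50.6 and 56.1 FPKM in αTC1 and at 41.2, 41.4 and 41.3 FPKM in βTC6. It was 1.25-fold higher in αTC1 (log2 fold change -0.32, SE 0.08, edgeR adjusted p = 0.00376).

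The remaining vesicular members were nearly silent. Slc30a2, a vesicular transporter of secretory epithelia (chr4:133899096-133910399, plus strand), had expected counts of 1, 0 and 0 in αTC1 and 7, 10 and 10 in βTC6, a ratio of summed counts per total of 25.2 with a 95% counting interval of 4.16 to 1032. Without the filter it passed (edgeR adjusted p = 0.00172, as did 57.4% of the genes then tested, 30.2% higher in βTC6 and 27.2% in αTC1) and met the study rule (18% of genes, 12.8% and 5.21% by direction), at a mean of 0.173 FPKM in βTC6. Slc30a3, the synaptic vesicle zinc transporter (chr5:31388479-31395988, minus strand), held 2, 8 and 9 counts in αTC1 and 12, 8 and 3 in βTC6, and the lines overlapped. Counting intervals cover counting error only.

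Ordered by FPKM, the members ran Slc30a8, Slc30a9, Slc30a5, Slc30a4, Slc30a6, Slc30a7 and Slc30a1 in both lines. The neighbours Slc30a5 and Slc30a4 overlapped in αTC1, and Slc30a9 and Slc30a5 overlapped in βTC6. Slc30a1, Slc30a4, Slc30a7 and Slc30a10 overlap annotated genes on the opposite strand, and as the counting was not stated to use strand, reads of such pairs cannot be told apart.

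Of the 44 peaks, 37 (84.1%) differed between the lines at an adjusted p under 0.05 by limma on log2(normalized value + 1), against 78% of all consensus peaks. The peaks were split between the lines, with 19 higher in βTC6 and 18 higher in αTC1 (39.9% and 38.1% of all peaks). The study applied its rule to edgeR fold changes. Applied here to the limma fold changes, the study rule called 9 (20.5%, against 18.3% of all peaks), 7 higher in βTC6 and 2 in αTC1 (12.9% and 5.38% of all peaks). Study rule peaks named below are those of the limma fit. With a pseudocount of 5 in place of 1 the study rule called 0 of the 44, where 3.82% of all peaks were still called. With edgeR on the recovered reads, the kind of test the study used, the rule called 9 higher in βTC6 and 2 in αTC1, where it called 30% of all peaks. Within replicates 1 to 3 alone 18 peaks were higher in βTC6 and 18 in αTC1 (74.6% of all peaks passed), and within replicates 4 and 5 alone 16 and 11 (60.3% of all peaks passed). The normalized values are TMM-scaled read counts. The 9 study rule peaks of the limma fit were nearest to Slc30a8 (5) or Slc30a5 (4), which held 21 and 12 of the 44 peaks. Slc30a2 had no peak.

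The 6 windows below are the 300 bases of mm9 reference, plus strand, around the centres of the Slc30a8 promoter peak and of all 5 Slc30a8 peaks that the study rule called, shown because the Slc30a8 results below turn on them. Capitals mark a match to any of 6 motifs searched on both strands: the metal response element cores TGCACNC and TGCGCNC, the homeobox core TAATTA, the E-box CAGCTG, the forkhead core TGTTTAC and the Maf core TGCTGAC.
Upstream peak, chr15:52067581-52067880: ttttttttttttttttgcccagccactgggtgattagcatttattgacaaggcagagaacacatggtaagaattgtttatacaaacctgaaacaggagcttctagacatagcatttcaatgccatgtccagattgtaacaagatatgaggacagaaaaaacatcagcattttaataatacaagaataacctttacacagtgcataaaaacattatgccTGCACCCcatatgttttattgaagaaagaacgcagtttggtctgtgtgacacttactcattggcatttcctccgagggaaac
Promoter peak, chr15:52126755-52127054: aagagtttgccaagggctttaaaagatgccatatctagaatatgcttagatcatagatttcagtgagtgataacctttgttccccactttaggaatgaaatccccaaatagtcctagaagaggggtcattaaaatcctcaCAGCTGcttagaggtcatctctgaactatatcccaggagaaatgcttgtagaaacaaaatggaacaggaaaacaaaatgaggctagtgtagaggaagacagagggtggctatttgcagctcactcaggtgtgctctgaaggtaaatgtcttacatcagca
Intronic peak, chr15:52155425-52155724: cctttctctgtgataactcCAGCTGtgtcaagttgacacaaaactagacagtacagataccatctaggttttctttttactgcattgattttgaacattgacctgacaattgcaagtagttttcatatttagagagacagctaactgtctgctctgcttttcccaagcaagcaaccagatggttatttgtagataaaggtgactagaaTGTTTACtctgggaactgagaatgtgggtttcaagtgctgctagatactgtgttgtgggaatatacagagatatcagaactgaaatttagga
Nearest downstream peak, chr15:52201610-52201909: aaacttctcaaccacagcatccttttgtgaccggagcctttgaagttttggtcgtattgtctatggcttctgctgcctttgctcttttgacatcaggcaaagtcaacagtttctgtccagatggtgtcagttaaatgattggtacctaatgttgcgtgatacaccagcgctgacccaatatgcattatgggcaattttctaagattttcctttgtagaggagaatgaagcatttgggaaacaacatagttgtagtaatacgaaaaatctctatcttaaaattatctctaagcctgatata
Middle downstream peak, chr15:52295865-52296164: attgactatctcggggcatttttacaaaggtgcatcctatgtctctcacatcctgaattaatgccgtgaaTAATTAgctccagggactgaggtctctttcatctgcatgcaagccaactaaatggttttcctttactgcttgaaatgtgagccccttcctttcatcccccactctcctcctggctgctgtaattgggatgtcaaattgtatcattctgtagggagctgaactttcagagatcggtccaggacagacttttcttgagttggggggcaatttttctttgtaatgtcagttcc
Farthest downstream peak, chr15:52312139-52312438: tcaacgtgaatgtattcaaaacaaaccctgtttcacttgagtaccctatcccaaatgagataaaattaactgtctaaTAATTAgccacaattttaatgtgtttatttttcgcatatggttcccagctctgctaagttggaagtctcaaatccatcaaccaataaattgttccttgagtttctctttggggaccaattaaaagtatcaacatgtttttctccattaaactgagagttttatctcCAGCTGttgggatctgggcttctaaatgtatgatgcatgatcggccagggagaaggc
The upstream window held a metal response element core of the A form, the promoter window an E-box, and the intronic window an E-box and a forkhead core. The nearest downstream window held no match, the middle one a homeobox core, and the farthest a homeobox core and an E-box. In the same windows of all 65053 peaks the E-box was present in 23.8%, the homeobox core in 9.86% and the forkhead core in 8.8%, and in the 44 member peaks they were present in 11, 4 and 5. The metal response element cores were present in 14.9% (A form) and 9.88% (G form) of all peaks and in 8 and 5 member peaks, and the Maf core in 7.01% and in 7. A match is a description of letters and not of a bound site.

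Of the 21 Slc30a8 peaks, 10 were higher in αTC1, 8 were higher in βTC6 and 3 did not pass, beside 38.1% and 39.9% of all peaks in the same directions. The promoter peak, 0.2 kb upstream of the start site, was higher in αTC1. Its values were 20.3, 20.1, 25.2, 21.8 and 21.7 in αTC1 and 11.6, 9.23, 12.4, 10.99 and 13.4 in βTC6, without overlap (log2 fold change -0.87, SE 0.13, limma adjusted p = 2.90e-06). The RNA of Slc30a8 was thus higher in βTC6 while its promoter peak was higher in αTC1. The same held for Slc30a1 and Slc30a5 in the main fits, and of all promoter peaks 52.3% were higher in αTC1 and 23.4% in βTC6.

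Both study rule peaks that were higher in αTC1 belonged to Slc30a8. The peak 59.4 kb upstream was at 37.5, 41.4, 37.1, 35.8 and 27.2 in αTC1 and at 7.24, 4.92, 9.46, 8.42 and 6.95 in βTC6. The intronic peak at 28.5 kb was at 26.8, 25.1, 23.9, 27.0 and 16.3 in αTC1 and at 4.69, 5.33, 5.14, 4.57 and 4.601 in βTC6. In both, every αTC1 library was above every βTC6 library, and αTC1 replicate 5 was the lowest of its line (log2 fold changes -2.14, SE 0.15, and -2.06, SE 0.15, limma adjusted p = 1.43e-10 and 2.82e-10).

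The 3 other study rule peaks downstream of Slc30a8 were higher in βTC6. The peak at 74.7 kb rose from 2.32 ± 1.002 in αTC1 to 21.0 ± 1.33 in βTC6 (SD, n = 5; log2 fold change 2.77, SE 0.19, limma adjusted p = 1.04e-10). The peak at 185.2 kb was at 1.78 ± 1.30 and 18.2 ± 3.99 (log2 fold change 2.86, SE 0.25), and the peak at 168.9 kb at 2.04 ± 0.946 and 11.2 ± 1.88 (log2 fold change 2.04, SE 0.23). In none of the 3 did the lines overlap. These peaks lie far past the end of the gene and were tied to it only by distance.

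**Figure D2:**
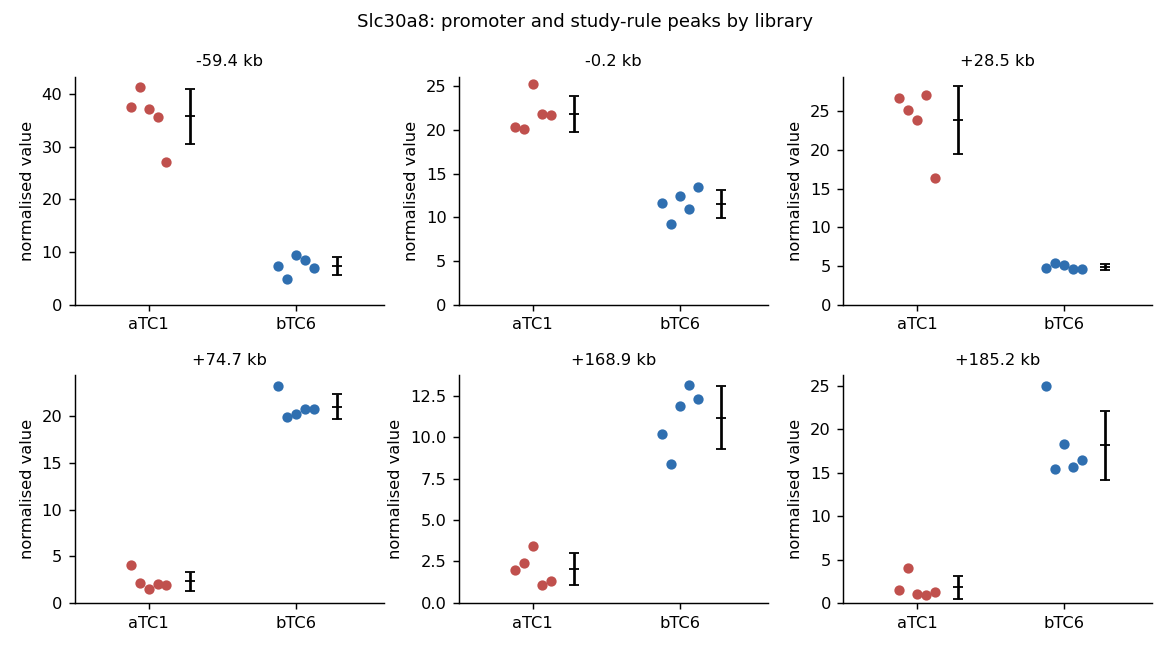
Normalized ATAC-seq values of the promoter peak and the 5 study rule peaks of Slc30a8 in each αTC1 (red) and βTC6 (blue) library, with black bars for the mean and SD of 5 libraries; panel titles give the distance from the start site. The 5 αTC1 libraries lie above the βTC6 libraries at -59.4, -0.2 and +28.5 kb and below them at +74.7, +168.9 and +185.2 kb.

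The 2 further Slc30a8 peaks named here, chosen after their values were seen, had the highest values at the locus. The intronic peak at 20.6 kb was at 20.4 ± 1.97 in αTC1 and 73.9 ± 9.92 in βTC6 (fitted log2 fold change 1.80, SE 0.10). The peak at 117.9 kb downstream was at 78.2 ± 4.19 and 20.9 ± 5.17 (log2 fold change -1.88, SE 0.13). Summed over its 21 peaks, Slc30a8 had 403 ± 30.0 in αTC1 and 317 ± 25.3 in βTC6 (SD, n = 5; ranges 353.5 to 431.6 and 288.5 to 348.9), a ratio of 0.787 where the sum over all consensus peaks had a ratio of 0.869, and both differences gave a two-sided exact permutation p of 0.00794, the smallest the design allows. As a share of the sum over all peaks, a measure added after seeing the data, Slc30a8 held 0.0319% to 0.0416% in αTC1 and 0.0309% to 0.0383% in βTC6, which overlap. The mixtures did not follow the difference in summed values: their sums ran from 288.0 to 352.8, and those with 20%, 30% and 40% βTC6 cells, at 300.6, 288.0 and 298.5, were below the mean of pure βTC6.

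**Figure D3:**
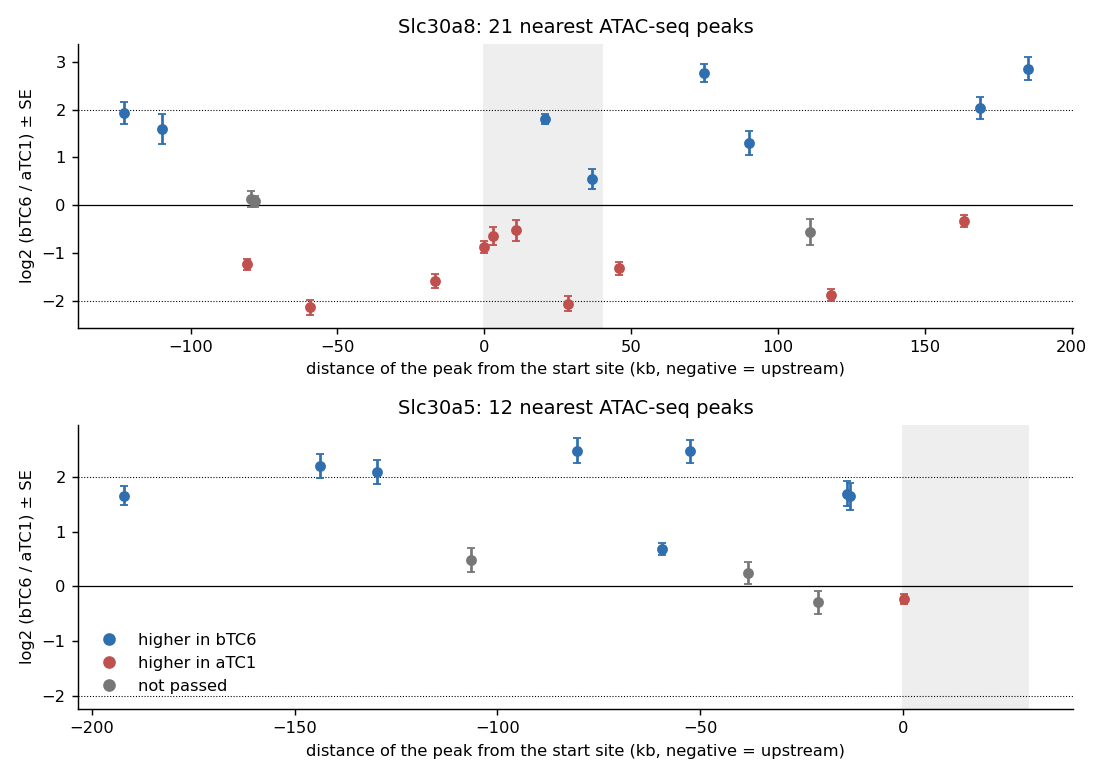
Log2 fold change of βTC6 over αTC1 (± SE, n = 5 libraries per line) of each peak nearest to Slc30a8 (top) and Slc30a5 (bottom) against its distance from the start site in kb; grey shading is the gene body, and dotted lines mark the study rule at 2 and -2. Slc30a8 peaks lie on both sides of 0, and 8 of the 12 Slc30a5 peaks are higher in βTC6, all upstream.

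Of the 12 Slc30a5 peaks, 8 were higher in βTC6, 1 was higher in αTC1 and 3 did not pass, beside 39.9% and 38.1% of all peaks in the same directions. Those 8 lay between 13.1 and 192.1 kb upstream of the start site, in sequence annotated as intergenic, and were tied to Slc30a5 only by distance. The study rule called 4 of them. The peak 52.5 kb upstream was at 1.54 ± 0.480 in αTC1 and 12.9 ± 2.27 in βTC6 (fitted log2 fold change 2.46, SE 0.21), and the peak 80.5 kb upstream at 1.13 ± 0.635 and 10.5 ± 1.70 (log2 fold change 2.48, SE 0.23). Further out, the peak 129.7 kb upstream was at 2.40 ± 0.767 and 13.5 ± 3.21, and the peak 143.8 kb upstream at 0.428 ± 0.223 and 5.74 ± 1.86 (SD, n = 5). The last rested on 1 to 5 reads in αTC1 libraries, and as the table holds no 0, a value of 1 read cannot be told from none. No line overlapped the other at these 4 peaks. The summed value of the 12 peaks was 109 ± 6.38 in αTC1 and 179 ± 6.66 in βTC6 (two-sided exact permutation p = 0.00794), a ratio of 1.64 beside 0.869 for all peaks, and its share of the sum over all peaks did not overlap between the lines. In the mixtures it rose from 106.5 at 10% to 168.9 at 90% βTC6 cells.

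Promoter peaks, those within 2 kb of a start site, were found for 8 members. In the TMM-scaled values 2 were higher in βTC6, 5 were higher in αTC1 and 1 did not pass, where 75.7% of all promoter peaks passed, 23.4% higher in βTC6 and 52.3% in αTC1. These counts depended on the setting: quantile normalization gave 4 and 1 (26.9% and 39.5% of all promoter peaks), replicates 4 and 5 alone 0 and 1 (17.3% and 32.7%), a term for replicates 1 to 3 against 4 and 5 or a mean value of at least 5 gave 2 and 6 (23.5% and 53.1%, or 22.9% and 54.5%), and leaving out αTC1 replicate 3 or αTC1 replicate 4 gave 2 and 2 (22.9% and 49.8%, or 22.8% and 50.2%). Slc30a8 and Slc30a1 had the largest differences among the 5. The Slc30a1 promoter peak was at 76.5, 80.5, 73.3, 78.3 and 74.4 in αTC1 and at 51.0, 60.7, 42.6, 57.2 and 59.0 in βTC6 (fitted log2 fold change -0.50, SE 0.10, limma adjusted p = 7.26e-05), but did not pass after quantile normalization (log2 fold change -0.05, adjusted p = 0.619).

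The promoter peaks of Slc30a5, Slc30a6 and Slc30a9 differed little. Slc30a5 was at 59.1 ± 6.10 in αTC1 and 50.0 ± 2.59 in βTC6 (fitted log2 fold change -0.23), Slc30a6 at 45.8 ± 4.72 and 38.9 ± 3.22 (-0.23), and Slc30a9 at 56.3 ± 4.23 and 48.8 ± 3.08 (-0.20). The calls did not hold without some single libraries: the Slc30a5 call ended in 4 of the 10 such fits (limma adjusted p up to 0.0656), the Slc30a6 call in 4 (up to 0.118) and the Slc30a9 call in 5 (up to 0.104). Their direction turned under quantile normalization, with log2 fold changes of 0.20, 0.14 and 0.22 (adjusted p = 0.0485, 0.159 and 0.0243). Slc30a4 did not pass, at 31.7 ± 4.31 and 26.1 ± 5.67 (log2 fold change -0.29, limma adjusted p = 0.0653). It passed without αTC1 replicate 5, βTC6 replicate 1 or βTC6 replicate 3 (adjusted p = 0.026, 0.0336 and 0.0367), and with a term for replicates 1 to 3 against 4 and 5 (adjusted p = 0.0292) or only peaks with a mean value of at least 5 (adjusted p = 0.0499).

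The promoter peaks of the nearly silent genes were weak. The Slc30a10 peak was at 3.11 ± 1.28 in αTC1 and 7.84 ± 1.02 in βTC6 (fitted log2 fold change 1.16), and the peak 1.9 kb from Slc30a3, inside an exon of Gm9924, at 2.08 ± 0.890 and 6.08 ± 2.47 (log2 fold change 1.19). Slc30a7 has no promoter peak under its own name. By position, a peak at its start site is annotated to the neighbouring gene Extl2, at 83.3 ± 2.22 in αTC1 and 64.2 ± 8.07 in βTC6 (fitted log2 fold change -0.38, limma adjusted p = 6.91e-04). The distal Slc30a6 peak 18.8 kb upstream, in an intron of Spast, was at 29.8 ± 3.78 in αTC1 and 7.47 ± 1.18 in βTC6 (fitted log2 fold change -1.86, chosen after its values were seen).

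The 9 mixtures, which did not enter the comparison of the pure lines, asked whether peaks followed the share of βTC6 cells. Of 30 peaks tested, the 24 with an absolute log2 fold change over 1 and the 6 other promoter peaks, 22 passed (exact permutation of Pearson's r, two-sided, Benjamini-Hochberg over the 30). With a rising βTC6 share 13 rose and 9 fell, and in 29 of 30 the sign was that of the pure lines; the Slc30a3 peak was the exception (r = -0.23). Of the 24, 21 passed, and of the 6, 1. As background, without a test, over all 31848 peaks that passed in the pure lines with an absolute log2 fold change over 1, 99.5% had the sign of the pure lines and 79.2% did so with an absolute r of at least 0.7402, the smallest that passed among the members, against 95.8% and 87.5% of the 24. Without the outermost 2 mixtures 14 of 30 passed.

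At the Slc30a8 peak 168.9 kb downstream the values at 10% to 90% βTC6 cells were 1.42, 1.56, 3.97, 5.10, 7.16, 8.27, 8.57, 15.3 and 15.9 (r = 0.96, rho = 1, exact permutation p = 5.51e-06, adjusted p = 1.65e-04, n = 9 mixtures). The highest mixtures exceeded the pure βTC6 range of 8.41 to 13.1. The peak 59.4 kb upstream fell from 33.7 to 10.5 (r = -0.93, rho = -0.97, exact permutation adjusted p = 4.96e-04, n = 9). The Slc30a6 peak in Spast fell from 26.4 to 9.41 (r = -0.97, rho = -0.98, exact permutation adjusted p = 1.65e-04, n = 9), and the Slc30a5 peak 52.5 kb upstream rose from 2.24 to 14.5 (r = 0.92, rho = 0.93, exact permutation adjusted p = 8.68e-04, n = 9). The Slc30a8 promoter peak did not pass (r = -0.64, rho = -0.70, exact permutation p = 0.0652, adjusted p = 0.085, n = 9). The Slc30a1 promoter peak was the promoter peak that passed (r = -0.83, rho = -0.80, exact permutation adjusted p = 0.00955, n = 9), but not when scaled to the reads in consensus peaks (r = -0.67, adjusted p = 0.065). Nor did it pass without the outermost 2 mixtures (r = -0.63, exact permutation adjusted p = 0.173).

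**Figure D4:**
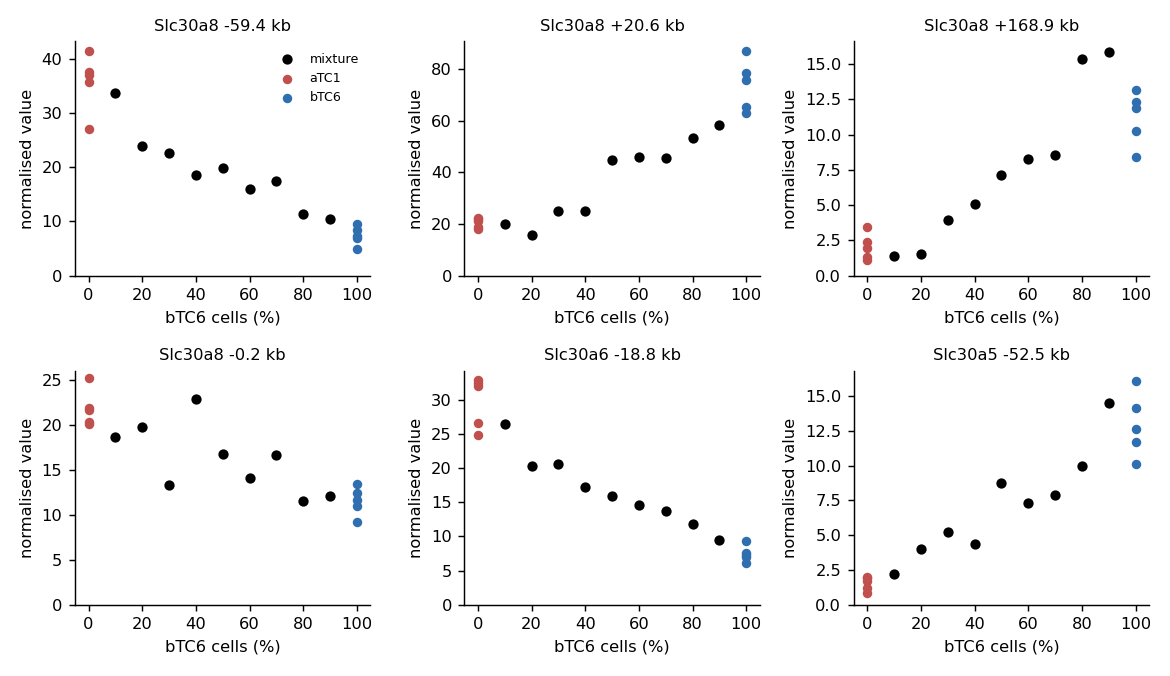
Normalized ATAC-seq value against the percentage of βTC6 cells for 6 peaks of Slc30a8, Slc30a6 and Slc30a5, with black points for mixtures (1 library each), red for pure αTC1 and blue for pure βTC6 libraries (n = 5 each). The distal peaks rise or fall with the percentage of βTC6 cells, and the promoter peak of Slc30a8 scatters more.

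The SLC39 importers move zinc in the opposite direction. Of 14 genes 10 were tested, 6 were higher in βTC6, 1 was higher in αTC1 and 3 did not pass, beside 38.7% and 36% of all tested genes in the same directions (median log2 fold change 0.37, against 0.01 over all genes tested). With ERCC scaling 1 importer passed, higher in βTC6, as did 17.5% of all tested genes. Slc39a8, which also carries manganese and iron, held 1, 2 and 2 expected counts in αTC1 and 1736, 1959 and 1659 in βTC6, a ratio of 999.8 (95% counting interval 428 to 3080). Slc39a11 was at 6.02 ± 0.821 FPKM in αTC1 and 11.98 ± 1.72 in βTC6 (fitted log2 fold change 1.05).

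Of 6 zinc buffering and sensing genes 5 were tested, 3 were higher in βTC6, 1 was higher in αTC1 and 1 did not pass. Over all tested genes 74.6% passed in either direction. The list gene higher in αTC1 was Tmem163, which is a transporter and not a buffer. With ERCC scaling 1 list gene passed in each direction, beside 17.5% of all genes higher in βTC6 and 11.8% in αTC1. The metallothioneins, which bind zinc, included Mt1, at 403.4, 423.9 and 502.4 FPKM in αTC1 and 887.8, 1029 and 1255 in βTC6 (fitted log2 fold change 1.31), and Mt3, at 41.4 ± 3.52 and 80.5 ± 21.0 FPKM (log2 fold change 1.02). Tmem163, a zinc transporter of vesicles, was 2.32-fold higher in αTC1, at 109 ± 4.59 against 44.5 ± 5.52 FPKM (SD, n = 3). Mtf1, the metal-sensing transcription factor, did not pass, at 11.4 ± 1.22 and 12.2 ± 1.33 FPKM.

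Of the 6 insulin granule partners, 5 were higher in βTC6 and 1, Pcsk2, in αTC1, beside 38.7% and 36% of all tested genes, and the call of Pcsk2 ended with libraries scaled by the summed ERCC spike-ins, where 29.2% of all tested genes passed. Ins2 was at 0.340 FPKM in αTC1 and 30081 in βTC6, Iapp at 0.593 and 10765, and Ins1 was listed at 0 in every αTC1 library and at 2000 ± 395 FPKM in βTC6. The prohormone convertase Pcsk1 was at 0.153 and 84.8 FPKM and the carboxypeptidase Cpe at 252 and 1517 FPKM, whereas Pcsk2 was at 783 ± 40.9 in αTC1 and 475 ± 80.5 in βTC6. Beside these folds the granule transporter Slc30a8 differed by 1.67-fold.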

How the data were processed

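ATAC-seq (5 αTC1, 5 βTC6, 9 mixtures) and RNA-seq (3 and 3) libraries were analysed. The authors trimmed ATAC reads (Trimmomatic 0.32), aligned them to mm9 (BWA 0.7.9a), called peaks per library (MACS2 2.1.0), built consensus peaks (DiffBind 2.2.5), annotated them (HOMER 4.6) and deposited TMM-normalized read counts, a signal per peak. For RNA they deposited RSEM 1.2.12 expected counts and FPKM values with Ensembl annotation. Deposited columns of the authors' own peak comparison were not used.

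Expected counts, rounded, were tested with edgeR 4.0.16 (TMM) in R 4.3.3 over 12195 genes that reached 1 FPKM in all 3 libraries of either line; ERCC rows (0.436% to 0.971% of counts) were left out. ATAC signal was tested with limma 3.58.1 on log2(value + 1) over 65053 peaks. All values (100%, tolerance 0.01) were whole multiples of a library's lowest value, so reads were recovered for edgeR and DESeq2 1.42.0, which were alternatives. Totals ran from 21954031 to 26033482 expected counts and from 4397851 to 10374903 recovered reads in peaks. Replicate pairs differed by more than sampling noise. Scripts were tested on simulated data.

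Lists, members and motifs were chosen with earlier results of these data known. All members, list genes that passed with an absolute log2 fold change over 1, promoter peaks within 2 kb and every study rule peak of the limma fit were named. Gene positions are GENCODE on mm9 (NCBIM37), sequences the same build. Figures used matplotlib 3.10.9 and correlations SciPy 1.17.1. A fold change on the log2(value + 1) scale understates the change of low peaks.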

Additional observations from a re-analysis of the deposited data

Results flagged for a closer look

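Among 34 groups of 5 libraries examined, 4 held 1 library far from the rest (Dixon's ratio over 0.71), and chance flags about 1 in 20 groups. The Slc30a5 promoter peak was at 48.39 in αTC1 replicate 5, against 60.4 to 63.46 in the others. The Slc30a8 peak 74.7 kb downstream was at 4.062 in αTC1 replicate 1, against 1.503 to 2.107, and at 23.29 in βTC6 replicate 1, against 19.89 to 20.84. The Slc30a8 peak 185.2 kb downstream was at 4.074 in αTC1 replicate 2, against 0.9553 to 1.541. Both downstream peaks remained higher in βTC6 at an adjusted p under 0.05 by limma when any single library was left out.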

How the results depend on the processing

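Scaling by the summed ERCC counts left 0 members passing in either direction, and of the lists 1 SLC39 importer higher in βTC6 and 0 in αTC1, 1 buffering gene higher in βTC6, and 0 granule partners higher in αTC1; over all genes it passed 3566 (29.2%), against 9102 (74.6%). The ERCC factor as a term gave 2 importers higher in αTC1. Without the filter 1 member, Slc30a2, met the study rule. Slc30a6 turned sign with the ERCC factor (0.0098) and Slc30a7 without the filter (-0.0477), with filterByExpr (-0.0111) and with limma on log2(FPKM + 1) (-0.0447), none of them passing. Leaving out 1 library put Slc30a6 between -0.0365 and 0.0421 and Slc30a7 between -0.0466 and 0.0678, and kept the members at 3 higher in βTC6 and 2 in αTC1.

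A pseudocount of 5 left 0 study rule peaks in either direction. Replicates 4 and 5 alone, whose mitochondrial share the study computed differently, gave 11 peaks higher in αTC1 and 0 study rule peaks there, with fewer libraries by construction. Over all 65053 peaks 27.6% were higher in αTC1 in that fit, and 4367 met the study rule there. Leaving out 1 library gave 18 to 20 peaks higher in βTC6 and 14 to 19 in αTC1. Quantile normalization turned the Slc30a5, Slc30a6 and Slc30a9 promoter peaks to 0.20, 0.14 and 0.22. Promoter peaks alone held 2 higher in βTC6, 5 in αTC1 and 0 by the study rule, and start site peaks by position, an alternative chosen after seeing the data, held 2, 6 and 0. Of all promoter peaks 23.4% were higher in βTC6 and 52.3% in αTC1. Scaled to the reads in consensus peaks the mixture r turned to 0.0748 (Slc30a5 promoter) and 0.0142 (Slc30a6), and without the outermost 2 mixtures, where 14 peaks passed, to 0.30 (Slc30a4), 0.35 (Slc30a6) and 0.0312 (Slc30a9). Except where a cause is given, the cause was not tested.

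Same-numbered libraries deviated together little or not at all (r from -0.05 to 0.03 in RNA-seq and 0.00 to 0.07 in ATAC-seq). Such values cannot exclude that same-numbered libraries were prepared together, which the labels do not say. With the replicate block, 20 peaks were higher in βTC6 and 20 in αTC1 (40.1% and 38.5% of all peaks), and 3 and 2 members (37.9% and 35.2% of all tested genes). The Slc30a4 promoter peak then passed (limma adjusted p = 0.0178).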
